A study of Canis lupus familiaris with 40 samples.

Results

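Neutrophils (polymorphonuclear cells, PMNs) and monocytes (MONOs) both arise from myeloid progenitors in the bone marrow, and a large part of their transcriptome is common to both lineages. Myeloid-derived suppressor cells (MDSCs) are myeloid cells that expand in cancer and restrain T cells. They occur in a neutrophil-like form (PMN-MDSCs) and a monocyte-like form (M-MDSCs), and PMN-MDSCs are found in the low-density layer of blood, where mature neutrophils are normally scarce. The 129 genes described here were expressed in both lineages of healthy dogs and were low in PMN-MDSCs. They were chosen from CPM values, the reads of a gene scaled to a common library total. A gene was kept if it had a mean of at least 20 CPM in H PMNs, means less than 20-fold apart in H PMNs and H MONOs, and a median in PMN-MDSCs of at most 0.25 of the H PMN mean. Genes with 20000 CPM or more in any library were left out. Of 24580 genes, 3698 met the conditions on healthy cells, and 129 of these (3.49%) also met the condition on PMN-MDSCs, which is 0.525% of all genes. The low level in PMN-MDSCs relative to H PMNs therefore chose the genes and is given as a description, with no test.

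The libraries came from flow-sorted blood cells of dogs, 9 of PMN-MDSCs, 10 of C PMNs, 5 of M-MDSCs and 8 of C MONOs from tumor-bearing dogs, and 5 of H PMNs and 3 of H MONOs from healthy dogs. PMN-MDSCs were CD5-CD21-MHCII-CD11b+CADO48A+CD14- cells and M-MDSCs CD5-CD21-MHCII-CD11b+CD14+CADO48A- cells, both from the mononuclear layer. C PMNs and H PMNs had a CD5-CD21-MHCII-CD11b+CADO48A+ surface but were taken from the dense pellet, so that density layer and population cannot be told apart. C MONOs and H MONOs were MHCII+CD11b+CD14+ cells of the mononuclear layer. All dogs with MDSC libraries had cancer, and no PMN-MDSC library came from a healthy dog. The labels give no age, tumor type or animal for a library, and p-values measure only the spread between these libraries.

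The libraries fall into 2 series by the start of their titles, GAR4079 and PAT4694, and every healthy library was in GAR4079. The depth was 19130545 to 60473238 counts in 38 of 40 libraries. The other two, C PMN 7 with 4229857 counts and PMN-MDSC 9 with 6299310 counts, stood apart, and the main differences that include them are also given without them. The files identify genes by Ensembl IDs only, and 0 of the 24580 IDs could be paired with a symbol, so no function is stated for a gene and the sorted populations could not be checked against named markers. In their place, 2 lists of 50 genes each were made from the healthy libraries, 1 of genes restricted to H PMNs and 1 of genes restricted to H MONOs. The neutrophil-restricted list summed to 48584 CPM or more in every PMN-lineage library and to at most 4865 CPM in every monocyte-lineage library. The monocyte-restricted list summed to 64129 CPM or more in every monocyte-lineage library and to at most 12317 CPM in every PMN-lineage library. Each library of a tumor-bearing dog thus carried the lineage of its label, while in the healthy libraries the way the lists were made fixed this. None of the 129 genes could be in either list, since the rule kept means less than 20-fold apart and the lists needed a 50-fold excess.

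In H PMNs the 129 genes ranged from 20.1 to 16913 CPM (mean over 5 libraries), with a median of 101 CPM, against 63.1 CPM over all 3698 genes that met the conditions on healthy cells (the candidate genes). There were 15 genes at 1000 CPM or more, 51 at 100 to under 1000 CPM and 63 at 20 to under 100 CPM. Together they made up 6.50 to 7.87% of the reads of an H PMN library. A few genes carried much of that sum. The first, ENSCAFG00000003376, held 23.2% of it, and the first 3 held 40.7%. The relative gene length, taken from the ratio of CPM to TPM and set to 1 at the median of the candidate genes, had a median of 0.996 among the 129 genes (quartiles 0.612 and 1.64) and quartiles of 0.528 and 1.73 among the candidate genes.

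The genes were not equally shared by the lineages. H MONOs had the lower mean for 102 of the 129 genes and the higher mean for 27. The median of the H MONO means was 50.2 CPM. In 11 genes the H MONO mean was at least 2-fold above the H PMN mean, in 36 both were within 2-fold, in 44 H MONOs were 2-fold to 5-fold lower and in 38 they were 5-fold or more lower. The description of genes of both lineages therefore holds for detection in both, while most of the genes were more abundant in PMNs. On the log2(CPM + 0.5) scale, the median difference of H PMNs over H MONOs was 1.46 for the 129 genes and 0.05 for the candidate genes.

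In PMN-MDSCs the median level of the 129 genes was 16.2 CPM, and the median ratio to the H PMN mean was 18.9%. Over the candidate genes the median ratio was 80.3%. The gene just inside the limit was ENSCAFG00000000011 with a ratio of 0.2498, and just outside it was ENSCAFG00000007934 with 0.2505. The ratio was lowest in ENSCAFG00000029818, at 0.0048. With a limit of 0.5 in place of 0.25 the rule found 702 genes.

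The low level was present in 7 of the 9 PMN-MDSC libraries, including the shallow PMN-MDSC 9. To compare libraries, the CPM of each gene was divided by its H PMN mean, and the median over the 129 genes was taken. This median was 20.6%, 16.0%, 68.4%, 14.2%, 16.3%, 19.8%, 15.2%, 65.2% and 0.6% in PMN-MDSC 1 to 9. PMN-MDSC 3 and PMN-MDSC 8 thus stood well above the other libraries of their population and were from different series. In C PMN 1 to 10 the median was 37.5%, 66.7%, 51.0%, 69.0%, 54.3%, 52.7%, 2.0%, 69.6%, 79.0% and 43.3%. The shallow library C PMN 7 was far below the other 9, which had no overlap with the 7 low PMN-MDSC libraries. The rule chose genes that were low in most PMN-MDSC libraries, and the 7 were picked out on the same values. The lack of overlap is therefore a description only. H PMNs lay between 91.2% and 107%, C MONOs between 25.9% and 39.96%, H MONOs between 26.2% and 40.2% and M-MDSCs between 31.9% and 42.7%.

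**Figure D1:**
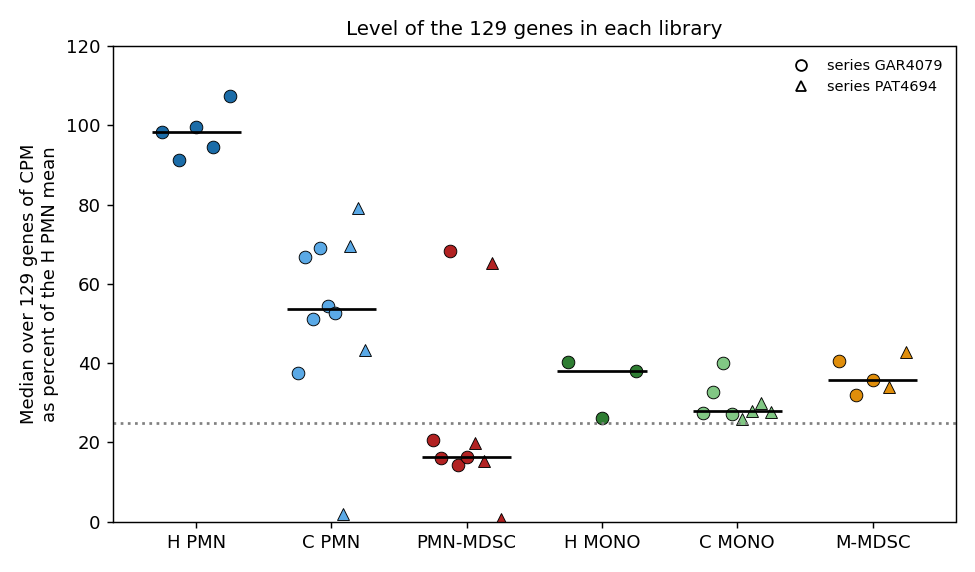
Median over the 129 genes of the CPM as a percent of each gene's H PMN mean (y axis), for each of the 40 libraries (points, circles for series GAR4079 and triangles for PAT4694) by population (x axis), with population medians as bars and the rule's limit of 25% as a dotted line. PMN-MDSC libraries lie at 20.6% or less except 2 at 68.4% and 65.2%, which lie among the C PMNs, and 1 C PMN library lies at 2.0%.

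The same split appeared gene by gene. Of the 129 genes, 87, 115, 7, 122, 115, 100, 95, 9 and 129 were at or below 0.25 of their H PMN mean in PMN-MDSC 1 to 9. The share of candidate genes at or below that level was 0.41% in PMN-MDSC 3, 0.46% in PMN-MDSC 8, 79.8% in PMN-MDSC 9 and 3.35 to 7.98% in the others. The shallow PMN-MDSC 9 therefore had most candidate genes below the limit, and its low values were not particular to the 129 genes. The highest of the 9 PMN-MDSC values was in PMN-MDSC 3 for 64 genes and in PMN-MDSC 8 for 58, and the lowest was in PMN-MDSC 9 for 111. PMN-MDSC 3 lay within the range of the C PMN libraries for 115 genes and PMN-MDSC 8 for 118. That range included the shallow C PMN 7 and so reached very low values. Within the range of C PMN libraries over 10000000 counts, PMN-MDSC 3 and PMN-MDSC 8 each had 112 genes. The other PMN-MDSC libraries of that depth had from 32 genes in PMN-MDSC 4 to 55 in PMN-MDSC 1. PMN-MDSC 9 had 4. The rule used these PMN-MDSC values, so the counts are a description.

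Measures of the libraries moved with this split. The summed level of the 50 monocyte-restricted genes was 8766, 7637, 596, 10667, 9695, 12317, 6734, 2378 and 3804 CPM in PMN-MDSC 1 to 9. It was 270 to 1634 CPM in 9 C PMN libraries and 3505 CPM in C PMN 7. The 50 neutrophil-restricted genes summed to 135746, 128101, 68668, 159113, 120634, 115784, 90103, 68528 and 402814 CPM in PMN-MDSC 1 to 9, to 48584 to 155658 CPM in 9 C PMN libraries and to 279496 CPM in C PMN 7. The most abundant gene took 5.63 to 7.51% of the reads in 6 PMN-MDSC libraries, 2.52% in PMN-MDSC 3, 2.64% in PMN-MDSC 8 and 17.7% in PMN-MDSC 9. All 50 genes of the monocyte-restricted list together gave at least 64129 CPM in every monocyte-lineage library, more than 5 times the highest sum in PMN-MDSCs. The part of these measures in the low level of the 129 genes was not tested. In bulk libraries, fewer cells of a type and less RNA per cell cannot be told apart.

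**Figure D2:**
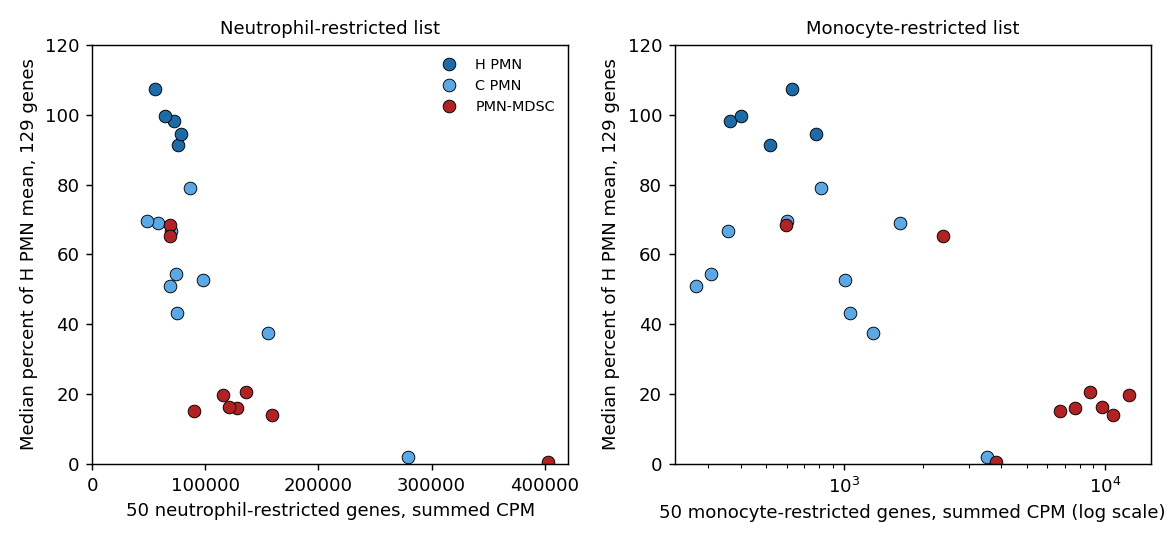
Median level of the 129 genes as a percent of the H PMN mean (y axes) against the summed CPM of 50 neutrophil-restricted genes (left, linear axis) and of 50 monocyte-restricted genes (right, log axis) in the 24 PMN-lineage libraries, 1 point per library. PMN-MDSC 3 and 8, at 68.4% and 65.2%, have the lowest neutrophil-list sums (68668 and 68528 CPM) and the lowest monocyte-list sums (596 and 2378 CPM) of their population.

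The reads assigned to the 129 genes set the same libraries apart. Their sum was 21804, 12850, 68846, 10054, 13332, 13271, 20049, 57413 and 632 CPM in PMN-MDSC 1 to 9, and 31893 to 80437 CPM in the C PMN libraries other than C PMN 7, which had 4037 CPM. H PMNs had 65043 to 78716 CPM, H MONOs 27010 to 29527 CPM, C MONOs 22025 to 29881 CPM and M-MDSCs 30103 to 36277 CPM. Without the first gene, 6 PMN-MDSC libraries still held 7998 to 17315 CPM against 24324 CPM or more in C PMNs over 10000000 counts. On CPM, the 7 low PMN-MDSC libraries were thus below every monocyte-lineage library in the summed level. The margin was small, with 21804 CPM in PMN-MDSC 1 and 22025 CPM in C MONO 5. The TMM factors, by which CPM can be divided as another scaling, were 0.967 and 1.48 in these libraries. This pair would change order with them, so the statement holds for CPM only.

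**Figure D3:**
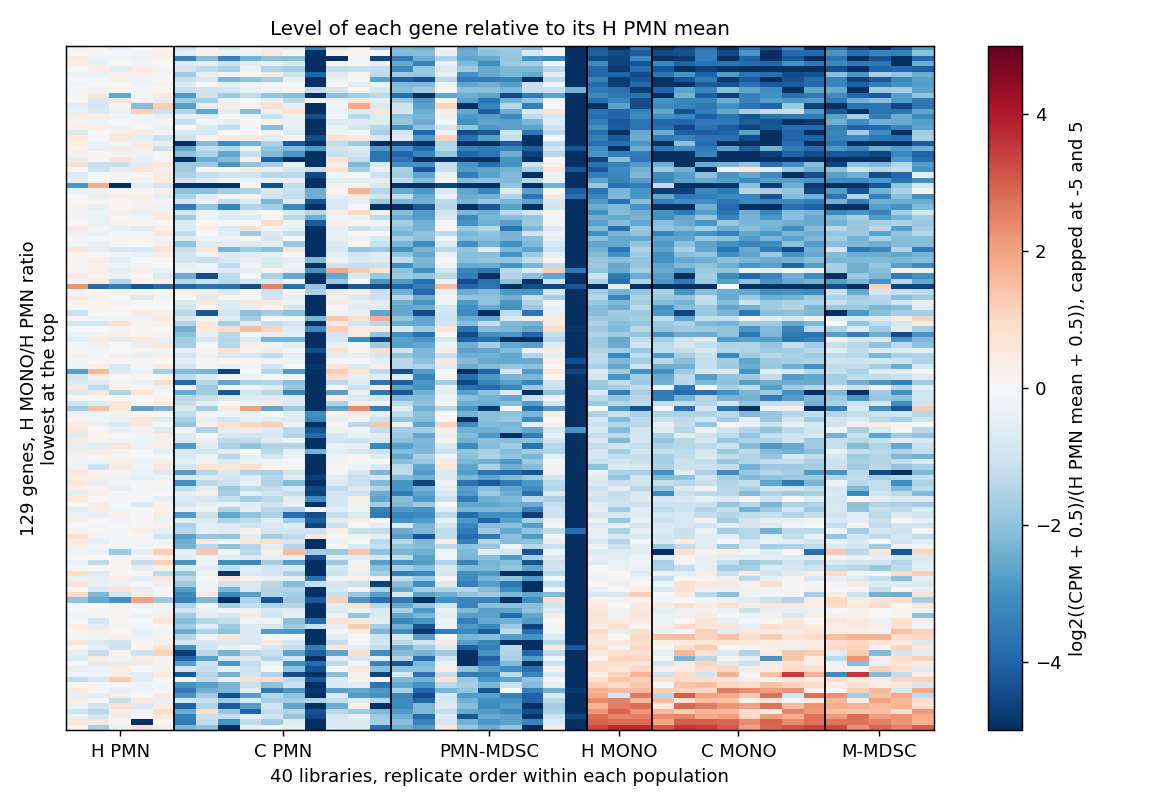
Each of the 129 genes (rows, lowest H MONO/H PMN ratio at the top) in each of the 40 libraries (columns, by population in replicate order), coloured by log2((CPM + 0.5)/(H PMN mean + 0.5)), blue for lower and red for higher than the H PMN mean. PMN-MDSC libraries are blue from top to bottom except PMN-MDSC 3 and 8, and the monocyte lineage turns from blue to red downwards, with 27 genes above the H PMN mean in H MONOs.

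ENSCAFG00000003376 was the most abundant of the genes. It had 19340, 15162, 16049, 14935 and 19081 CPM in H PMN 1 to 5. In PMN-MDSC 1 to 9 it had 4489, 3010, 16454, 2056, 2731, 2571, 3490, 11518 and 129 CPM. PMN-MDSC 3 was thus within the H PMN range, PMN-MDSC 8 was below it, and the others were 3-fold or more below the lowest H PMN. The C PMN libraries had 427 to 19957 CPM with a median of 11675 CPM, the lowest being C PMN 7 and the next 7569 CPM. H MONOs had 1544, 911 and 1330 CPM and C MONOs 546 to 1462 CPM. M-MDSCs had 3163, 2042, 3223, 2940 and 2474 CPM, all above every C MONO and H MONO library.

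ENSCAFG00000010595 was likewise highest in PMN-MDSC 3 and 8 and lowest in PMN-MDSC 9 among PMN-MDSCs. It had 4950, 5065, 7463, 7250 and 6416 CPM in H PMNs, and in PMN-MDSC 1 to 9 it had 1823, 1596, 4797, 758, 1087, 1277, 1082, 4474 and 87.0 CPM. C PMNs had 391 to 8254 CPM with a median of 4186 CPM. H MONOs had 386, 392 and 290 CPM, C MONOs 276 to 910 CPM and M-MDSCs 1478, 824, 2015, 1622 and 1130 CPM, of which 4 of 5 were above every C MONO library.

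ENSCAFG00000028817 was the most abundant of the 11 genes that were at least 2-fold higher in H MONOs, and was picked for that reason. It had 1536, 1205, 519, 1642 and 857 CPM in H PMNs and 5910, 6634 and 3465 CPM in H MONOs. In PMN-MDSC 1 to 9 it had 133, 71.0, 668, 217, 142, 146, 70.3, 456 and 29.5 CPM. C PMNs had 327 to 740 CPM with a median of 459 CPM, C MONOs 1127 to 3375 CPM and M-MDSCs 1507 to 4608 CPM. A gene more abundant in monocytes was thus also low in the same PMN-MDSC libraries.

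The mean in H PMNs could rest on 1 library. In 5 of the 129 genes, more of the H PMN sum came from 1 library than from the other four together. ENSCAFG00000029818, with the lowest ratio of all, had 5.10, 150, 0.42, 28.8 and 21.5 CPM in H PMN 1 to 5. It had 0.197, 0.107, 1.29, 0.0501, 0.109, 9.93, 0.456, 7.57 and 0.159 CPM in PMN-MDSC 1 to 9, so that the populations overlapped. The highest H PMN value was within 2-fold of the lowest in 67 of the 129 genes.

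**Figure D4:**
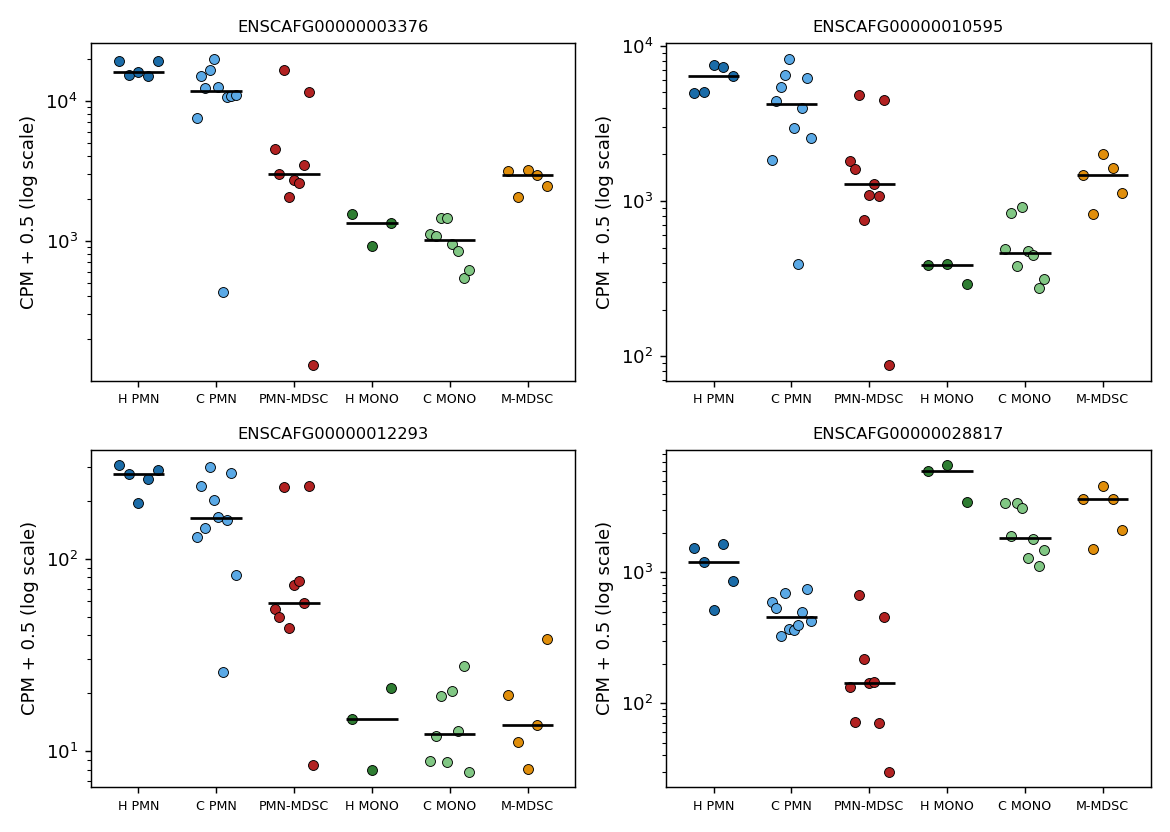
CPM + 0.5 (y axes, log scale) of 4 of the 129 genes in each of the 40 libraries (points) by population, with medians as bars. In each panel PMN-MDSC 9 is the lowest point of its population and PMN-MDSC 3 and 8 are its 2 highest points, while M-MDSCs lie above every C MONO library only for ENSCAFG00000003376.

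Across populations, the 129 genes had a median of population medians of 94.6 CPM in H PMNs, 46.9 CPM in C PMNs, 16.2 CPM in PMN-MDSCs, 44.2 CPM in H MONOs, 41.8 CPM in C MONOs and 43.6 CPM in M-MDSCs. All these medians are of CPM without TMM factors, as are the differences that follow. On CPM, PMN-MDSCs had the lowest median of the 6 populations in 76 genes. C MONOs had it in 29, H MONOs in 15, M-MDSCs in 6 and C PMNs in 3. H PMNs had the highest median in 88 genes. The median log2 difference of PMN-MDSCs over C MONOs was -0.74 and over M-MDSCs -1.01, or -0.55 and -0.74 without PMN-MDSC 9, and these are descriptions because PMN-MDSC values chose the genes.

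In every one of the 129 genes the PMN-MDSC median was below the H PMN median, which the choice of genes nearly fixes. All PMN-MDSC libraries were below all H PMN libraries in 39 genes, against 5.14% of the candidate genes, and the rule used this contrast. Without PMN-MDSC 9 the number of genes was also 39. The median log2 difference was -2.33 for the 129 genes and -0.28 for the candidate genes, or -2.14 and -0.22 without PMN-MDSC 9. Relative to C PMNs, which the rule did not use, it was -1.65 for the 129 genes and -0.03 for the candidate genes. The PMN-MDSC median was the lower in 123 genes and at least 2-fold lower in 110, where 10.8% of the candidate genes were. No gene had all PMN-MDSC libraries below all C PMN libraries, and 0.0% of the candidate genes did. Without the 2 shallow libraries the median log2 difference was -1.46, and 121 genes were lower. It was -1.56 within series GAR4079 and -1.50 within PAT4694. Since the same PMN-MDSC libraries chose the genes, these values are given without a test.

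The rule fixed the PMN-MDSC median at 25% of the H PMN mean or less in every gene, so that the PMN-MDSC levels of groups of these genes are a description. The median of the genes' PMN-MDSC medians was 21.4% of the H PMN mean in the 15 genes at 1000 CPM or more, 18.7% in the 51 genes at 100 to under 1000 CPM and 17.8% in the 63 genes below, where C PMNs were at 69.0%, 55.9% and 52.9%. By the balance between lineages, PMN-MDSCs were at 14.4% in the 11 genes at least 2-fold higher in H MONOs, 16.8% in the 36 genes within 2-fold, 21.0% in the 44 genes 2-fold to 5-fold lower and 18.7% in the 38 genes 5-fold or more lower. C PMNs were at 26.8%, 51.2%, 61.6% and 61.6% in the same order. The gap between PMN-MDSCs and C PMNs was thus narrowest in the genes most abundant in monocytes, where C PMNs were also low.

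C PMNs were themselves lower than H PMNs in these genes. The C PMN median was below the H PMN median in 117 of 129 genes, with a median log2 difference of -0.78 against -0.28 for the candidate genes. It was at least 2-fold lower in 49 genes, where 4.43% of the candidate genes were, and all C PMN libraries were below all H PMN libraries in 10 genes, against 1.3% of the candidate genes. Within series GAR4079 the median log2 difference was -0.77, and without C PMN 7 it was -0.70. The genes were required to be high in H PMNs, and the H PMN values of the rule are in this contrast, so that it was not tested. Among monocytes, the C MONO median was below the H MONO median in 89 of the 129 genes, with a median log2 difference of -0.30 against -0.06 for the candidate genes, likewise without a test.

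To separate the choice of genes from the reading, the rule was applied with the 5 PMN-MDSC libraries of series GAR4079 only. It found 134 genes, of which 117 (87.3%) were among the 129. These were read in series PAT4694, where the 4 PMN-MDSC and 4 C PMN libraries had entered the choice only through the limit of 20000 CPM. As a percent of the H PMN mean, the median over the 134 genes was 20.4%, 16.3%, 71.9% and 0.6% in PMN-MDSC 6 to 9, and 2.2%, 73.6%, 82.6% and 47.1% in C PMN 7 to 10. PMN-MDSC 6, 7 and 9 were thus low, PMN-MDSC 8 was not, and the shallow C PMN 7 was low as well. The PMN-MDSC median was the lower in 127 of the 134 genes and at least 2-fold lower in 93, with a median log2 difference of -1.35, or -1.26 without the 2 shallow libraries, against -0.05 for the candidate genes.

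The test in these held-out libraries called none of the 134 genes. With edgeR's quasi-likelihood test and a false discovery rate (FDR) of at most 0.05, 0 of 134 genes and 0.0% of the 9666 genes tested passed. At an unadjusted p under 0.05 there were 10 of the 134 genes, all lower in PMN-MDSCs. That was close to the share of all genes, 598 of 9666. Without PMN-MDSC 8 these 10 became 33, with 921 of 9963 over all genes. They became 1 without PMN-MDSC 7 (636 of 10238 over all genes) and 3 without PMN-MDSC 6 (500 of 9967). They became 6 without C PMN 7 (948 of 10358) and 19 without both shallow libraries (714 of 10214). With library size alone in place of TMM they became 0 (291 of 9666). None of the 134 genes passed that limit with a fold change above 0 in any of these fits. DESeq2's Wald test called 0 of the 134 genes and 98 of all genes (1.01%), 91 of them higher in PMN-MDSCs. The log2 fold change was below 0 in 131 of the 134 genes and its median was -1.10, where the median over all genes was -0.01. Without both shallow libraries the median was -1.03, and leaving out 1 library at a time moved it from -1.95 without PMN-MDSC 8 to -0.77 without PMN-MDSC 9. The median standard error of a gene was 1.0. The genes with the smallest FDR were ENSCAFG00000002435 (log2 fold change -3.30 ± 1.18 (SE), edgeR FDR = 0.672) and ENSCAFG00000029818 (-2.73 ± 1.09, edgeR FDR = 0.733) in the lower direction. The highest of the 3 genes above 0 was ENSCAFG00000013049, at 1.24 ± 0.96 (SE, edgeR FDR = 1.0).

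The other comparisons were between populations that entered the choice of genes only through the limit of 20000 CPM, which applied to all 40 libraries. ENSCAFG00000003376, with 19957 CPM in C PMN 5, was just under it. The first asked whether the genes differed between the lineages in tumor-bearing dogs as they did in healthy dogs. In C PMNs against C MONOs, 104 of the 129 genes passed an FDR of at most 0.05 with edgeR's quasi-likelihood test, 95 higher in C PMNs and 9 lower, where 65.6% of the 11261 genes tested passed (31.5% higher and 34.1% lower). The median log2 fold change was 1.95 for the 129 genes and -0.03 for all genes. With library size alone in place of TMM, 80 of the 129 genes (62.0%) were called, 59 higher and 21 lower, where 64% of all genes were called (1471 higher and 5735 lower) and the median of all genes moved to -1.08. The share of the 129 genes called was then not above that of all genes. The C PMN 7 library was in this fit, and leaving out 1 library at a time gave 97 to 108 genes, with 108 without C PMN 7.

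The direction broadly followed the levels in healthy cells, but these were on unlike scales. Levels in healthy cells were grouped on CPM, while the fold changes used TMM. TMM moved the median of all genes from -1.08 to -0.03, so the calls among genes within 2-fold may depend on the scaling. This was not tested by group. All 38 genes that were 5-fold or more lower in H MONOs were called higher in C PMNs than in C MONOs, with a median log2 fold change of 3.53. Of the 44 genes that were 2-fold to 5-fold lower in H MONOs, 42 were called higher, with a median of 2.17 and all 44 above 0. Of the 36 genes within 2-fold, 15 were called higher and 0 lower by edgeR. In this set 22 fold changes were above 0 and 14 below, 1 of these at an unadjusted p under 0.05, and the median was 0.23. Of the 11 genes at least 2-fold higher in H MONOs, 9 were called lower in C PMNs and 10 were below 0, with a median of -2.59.

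The genes with the smallest FDR showed both directions. ENSCAFG00000012293 had 129, 237, 143, 298, 202, 165, 25.3, 159, 278 and 82.0 CPM in C PMN 1 to 10 and 8.33, 11.5, 18.9, 8.28, 20.1, 12.2, 27.3 and 7.33 CPM in C MONO 1 to 8. The populations overlapped through C PMN 7 alone, and the log2 fold change was 4.59 ± 0.33 (SE, edgeR FDR = 1.55e-09). ENSCAFG00000009228 had 3.31 to 76.6 CPM in C PMNs (median 58.7) and 3.69 to 9.68 CPM in C MONOs (median 6.31), a log2 fold change of 4.0 ± 0.32 (SE, edgeR FDR = 4.83e-09). In PMN-MDSCs their medians were 58.0 and 16.1 CPM, between those of C PMNs and of C MONOs. In the lower direction, ENSCAFG00000018219 had 5.44 to 268 CPM in C PMNs (median 153) and 1612 to 3409 CPM in C MONOs (median 2895), with no overlap and a log2 fold change of -3.30 ± 0.39 (SE, edgeR FDR = 4.64e-07). It had 3.02 to 250 CPM in PMN-MDSCs (median 64.3). ENSCAFG00000013049 had 0.473 to 18.9 CPM in C PMNs (median 3.51) and 31.0 to 163 CPM in C MONOs (median 86.8), also with no overlap, and a log2 fold change of -3.40 ± 0.43 (SE, edgeR FDR = 9.80e-07). Its PMN-MDSC median, 4.82 CPM, was not below that of C PMNs.

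**Figure D5:**
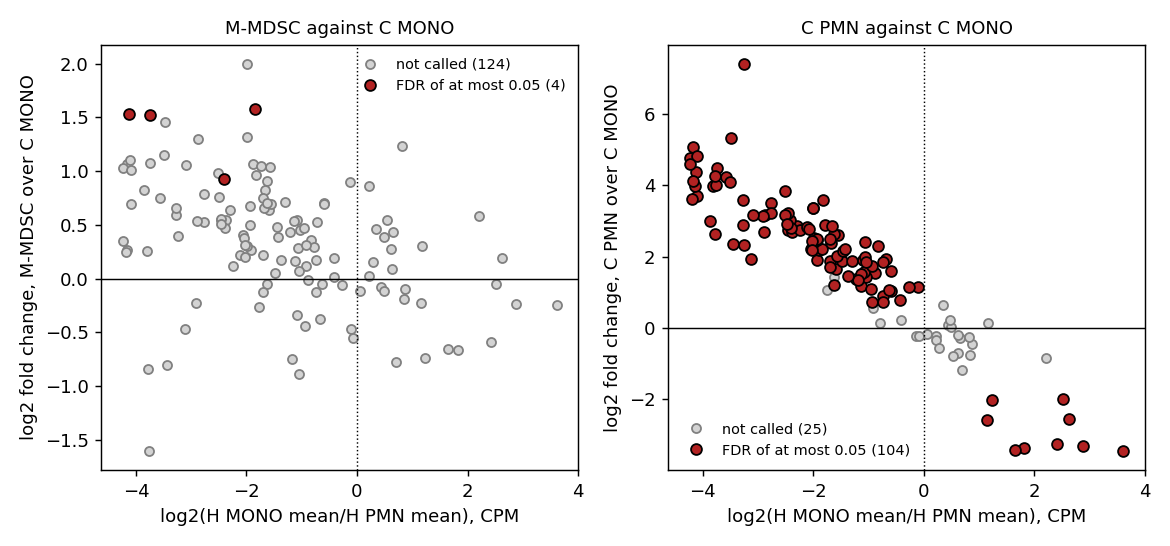
Log2 fold change from edgeR (y axes) of M-MDSCs over C MONOs (left, 128 genes tested) and of C PMNs over C MONOs (right, 129 genes) against the log2 ratio of the mean CPM in H MONOs to that in H PMNs (x axes), 1 point per gene, with genes at an FDR of at most 0.05 in red. On the left 4 genes are called, all above 0 and all lower in H MONOs than in H PMNs, and on the right 95 called genes lie above 0 and 9 below.

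The second comparison asked whether the genes that were low in PMN-MDSCs also differed in the other MDSC subset, M-MDSCs against C MONOs. Here 4 of the 128 genes that passed the filter on low counts were called, all higher in M-MDSCs, and none was lower. Over all 11874 genes tested, 0.758% passed of which 0.505% were higher in M-MDSCs and 0.253% lower. At an unadjusted p under 0.05 there were 31 of the 128 genes, 28 of them higher, and 1626 of all 11874 genes. The log2 fold change was above 0 in 95 of the 128 genes, with a median of 0.39 against -0.003 for all genes. With 0.253% of all genes called lower, 0 lower calls among the 128 genes could not show whether M-MDSCs shared the low level.

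The called genes were ENSCAFG00000003376, with a log2 fold change of 1.52 ± 0.24 (SE, edgeR FDR = 0.0113), and ENSCAFG00000010595, with 1.53 ± 0.30 (SE, edgeR FDR = 0.0328), whose values are given above. The other two were named after their values had been seen. ENSCAFG00000014920 had 93.5, 23.2, 39.3, 51.7 and 118 CPM in M-MDSCs and 15.0 to 30.0 CPM in C MONOs, with 1 M-MDSC library inside the C MONO range and a log2 fold change of 1.58 ± 0.32 (SE, edgeR FDR = 0.0328). ENSCAFG00000009926 had 263, 285, 156, 258 and 376 CPM in M-MDSCs and 93.8 to 200 CPM in C MONOs, again with 1 library inside the range and a log2 fold change of 0.92 ± 0.20 (SE, edgeR FDR = 0.0491). The members with the smallest FDR in the lower direction did not pass, ENSCAFG00000005415 at -0.74 ± 0.26 (SE, edgeR FDR = 0.21) and ENSCAFG00000016734 at -0.74 ± 0.30 (SE, edgeR FDR = 0.269). ENSCAFG00000003376 was called whichever 1 library was left out, and the other calls changed with the libraries. There was 1 call without M-MDSC 1, M-MDSC 4, M-MDSC 5, C MONO 5, C MONO 6 or C MONO 8, there were 2 without M-MDSC 3, C MONO 3, C MONO 4 or C MONO 7, and there were 8 without M-MDSC 2. Either series alone gave 0 calls among the genes with edgeR. At an unadjusted p under 0.05 there were 12 of them in GAR4079, where 769 of all 12123 genes passed. In PAT4694 there were 34, where 1943 of all 11996 genes passed.

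The differences of M-MDSCs over C MONOs also followed the levels in healthy cells. The median log2 fold change was 0.65 in the 37 tested genes that were 5-fold or more lower in H MONOs, 0.45 in the 44 genes 2-fold to 5-fold lower, 0.14 in the 36 genes within 2-fold and -0.24 in the 11 genes at least 2-fold higher in H MONOs. The numbers above 0 were 32 of 37, 38 of 44, 22 of 36 and 3 of 11. Beside this, the 50 neutrophil-restricted genes summed to 4154, 2776, 4504, 4865 and 4751 CPM in M-MDSC 1 to 5 and to 301 to 2019 CPM in C MONOs, with no overlap. The 50 monocyte-restricted genes summed to 64129 to 90875 CPM in M-MDSCs and to 95673 to 130494 CPM in C MONOs. The part of these neutrophil-restricted transcripts in the differences was not tested.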

How the data were processed

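RNA was prepared by the authors with Smart-seq2 and Nextera XT and sequenced as 75 bp read pairs. Per the paper's methods, reads were trimmed with skewer, aligned with HISAT2 to CanFam3.1 with ERCC sequences, and marked for duplicates with Picard 1.92. The deposited counts were made by the authors with featureCounts (Subread 1.5.0) from reads mapping uniquely to exons of Ensembl genes, without normalization. The deposited CPM values are the authors' counts scaled to the library total, which was checked on the values. The deposited TPM values were used for relative gene length and 1 alternative. The gene length behind them is not given in the sources used here, and strand use in counting is not stated either.

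Genes were chosen on CPM by the rule in the text, and the limit of 200 genes was not reached. The members and lists were chosen with earlier results of these data known. Counts were tested with edgeR 4.0.16 (quasi-likelihood, TMM, filterByExpr, 2 populations per fit, Benjamini-Hochberg over all genes tested, FDR of at most 0.05), tried beforehand on simulated data. DESeq2 1.42.0, other scalings, no filter, series as a term, each series, a single fit and leaving out each library were alternatives, and limma 3.58.1 was loaded with edgeR in R 4.3.3. Ratios used a pseudocount of 0.5 CPM. Each lineage list held the 50 most abundant genes of H PMNs or H MONOs that had a mean of 50 CPM or more, a 50-fold or larger excess over the opposite lineage and separate ranges. The 2 lowest-FDR genes per direction of each tested comparison and those nearest the threshold were named, and others were chosen after their values were seen. Gene symbols, gene functions and sequences were not analysed here. Library depth was 4229857 to 60473238 counts, of reads and not of molecules. The study counts fewer PMN-MDSC and C PMN libraries than the labels do, without naming those left out, and all labelled libraries were kept here.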

Additional observations from a re-analysis of the deposited data

Results flagged for a closer look

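In groups of 4 to 10 libraries, the highest or lowest library of a named gene was compared with the others by Dixon's gap. Of 105 groups tested, 9 had a library far from the rest. The usual chance rate of about 1 in 20 assumes normally spread values. It is no yardstick here, since CPM were used without logs and some genes were named for extreme values. ENSCAFG00000014920 had 127 CPM in PMN-MDSC 8 where the other PMN-MDSC libraries had at most 48.5 CPM. ENSCAFG00000011534 had 38.3 CPM in PMN-MDSC 8 where the others had at most 4.23 CPM, and 0.652 CPM in C MONO 1 where the others had at most 0.192 CPM. ENSCAFG00000013049 had 26.9 CPM in PMN-MDSC 6 where the others had at most 8.03 CPM, and 18.9 CPM in C PMN 4 where the others had at most 5.08 CPM. ENSCAFG00000014541, which is among the 134 held-out genes, had 216 CPM in C PMN 9 where the others had at most 89.4 CPM. ENSCAFG00000029818 had 150 CPM in H PMN 2 where the others had at most 28.8 CPM. ENSCAFG00000002054 had 81.1 CPM in C MONO 2 where the others had at most 24.1 CPM. ENSCAFG00000007934, just outside the threshold, had 303 CPM in the shallow C PMN 7 where the others had at least 4220 CPM.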

How the results depend on the processing

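The number of genes called in M-MDSCs against C MONOs, 4, depended on the processing. It was 9 (7.03% of those tested) with DESeq2's Wald test, which called 4.28% of all genes, and 0 in series GAR4079 alone, in PAT4694 alone, with all 40 libraries in a single fit and at an FDR of at most 0.01. Leaving out each library gave 1 to 8. The fold changes of the 4 called genes kept their sign under all 22 alternatives. In C PMNs against C MONOs the count was 104, and it moved by over 1.5 times only in series PAT4694 alone, with 69 genes. Leaving out each library gave 97 to 108. The held-out test gave 0 genes under all 12 alternatives, of which only DESeq2's Wald test called any of the genes outside the group. The median log2 difference of PMN-MDSCs over C PMNs, -1.65, stayed below 0 under all 24 alternatives, from -1.83 with TMM factors, where the candidate genes moved to -0.29, to -1.26 in held-out libraries. Leaving out each library gave -1.75 to -1.37. With the rule on PAT4694 and the ratio in GAR4079, added after the data were seen, it was -1.40. The rule found 113 genes with medians of healthy cells, 126 with TMM factors and 136 with TPM, and 104 to 153 without each library. The 104 were found without the shallow PMN-MDSC 9, and 102 of them were among the 129. No paired analysis was possible because the titles carry no replicate numbers and no label names the dog. The 2 shallow libraries limit what C PMN 7 and PMN-MDSC 9 can show, with 11 and 19 of the 129 genes at 0 counts. The test of PMN-MDSCs against H PMNs and H MONOs was not made, since the rule used them.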
